A study of Brassica napus with 9 samples.

Results

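Plastids make fatty acids from acetyl-CoA, and the heteromeric acetyl-CoA carboxylase (ACCase) of the plastid catalyses the first committed step, the formation of malonyl-CoA. The enzyme is built from biotin carboxylase (BC), which carboxylates biotin, the biotin carboxyl carrier protein (BCCP), which holds the biotin, and a carboxyltransferase of alpha and beta subunits, which passes the carboxyl group to acetyl-CoA. In most flowering plants the beta subunit is encoded by accD in the plastid genome, while the genes of the other subunits lie in the nucleus.

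The carboxyltransferase beta genes of the *B. napus* table were followed here through 9 RNA-Seq libraries. They are BnaA10g13960D, BnaC05g37990D and BnaC09g27620D, 3 of the 91830 genes counted, chosen by their identifiers, which place them on chromosomes A10, C05 and C09. A further gene, BnaC09g27690D, carries the same description in the gene lists of the study. The 3 lines were the transgenic lines CpFatB5 and CpFatB4, homozygous T4 plants of Youngsan that express an acyl-ACP thioesterase of *Cuphea paucipetala* under the seed-specific Napin promoter, and the cultivar Youngsan itself, with no transgene. Such thioesterases cut the finished acyl chain off the acyl carrier protein. Whole pods with their developing seeds were collected from greenhouse plants at 3 stages, 8, 25 and 45 DAF (days after flowering), and equal amounts of RNA from 3 preparations of 1 or 2 pods were pooled into 1 library for each line and stage. There were therefore no replicates. The T4 plants of each transgenic line whose seeds were analysed shared a T3 parent, and whether the pods sequenced did is not stated. In pooled pods, fewer cells that carry a transcript and less transcript per cell cannot be told apart. The kit was the TruSeq RNA Sample Preparation Kit v2, which selects polyadenylated RNA.

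Depth lay between 38677752 and 88259440 counts per library over both deposited columns, and the 45 DAF library of CpFatB5 was the shallowest. As a check of the labelled tissue, 3 genes of the seed storage protein Napin took at most 0.00147% of the counts at 8 DAF and between 0.263% and 4.56% at the later stages, the lowest of these in CpFatB5 at 45 DAF. The pair of Cruciferin genes checked, which encode another storage protein, took at most 0.000633% at 8 DAF and between 0.155% and 6.72% later. Counting intervals below are exact Poisson or binomial intervals at the 95% level. They cover counting error only, and are too narrow because both columns of a library were summed although they may hold the same reads.

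The 3 copies had the same count in every one of the 18 raw columns, and so did BnaC09g27690D. No other gene of the table shared these counts. Of the 39015 genes with a mean raw count of at least 100, 405 genes (1.04%) shared all their counts with at least 1 other gene and formed 160 sets, of which 19 held 4 genes or more. How reads that match several coding sequences were counted is not given in the sources used here, although most libraries hold more counts in 1 column than clean reads. The 3 copies were therefore taken as 1 measurement, given once for all of them, and neither summed nor averaged, and the counts cannot say which copy, or which other identical sequence, the reads came from. The values below are those of BnaA10g13960D, which stand for BnaC05g37990D and BnaC09g27620D as well.

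At 8 DAF the copies were counted 83 and 85 times in the 2 columns of CpFatB5, 48 and 43 times in CpFatB4 and 24 and 24 times in Youngsan. At 25 DAF the counts were 14 and 12 in CpFatB5, 53 and 54 in CpFatB4 and 118 and 123 in Youngsan. At 45 DAF they were 1950 and 1940 in CpFatB5, 902 and 913 in CpFatB4 and 197 and 196 in Youngsan. The order of the lines at 25 DAF was the reverse of that at both other stages, and the 3 libraries of 45 DAF held the 3 highest counts.

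On the scale of normalized counts, in which the columns are divided by size factors, the 8 DAF level was 75.5 in CpFatB5 (95% counting interval 64.5 to 87.8), 34.0 in CpFatB4 (27.4 to 41.8) and 17.6 in Youngsan (12.99 to 23.4). The 25 DAF libraries had 10.3 normalized counts in CpFatB5 (6.70 to 15.04), 47.9 in CpFatB4 (39.3 to 57.9) and 97.9 in Youngsan (85.9 to 111). The 45 DAF libraries had 3773 in CpFatB5 (3656 to 3894), 1506 in CpFatB4 (1437 to 1577) and 220.02 in Youngsan (199 to 243). No 2 lines of 1 stage had overlapping intervals. Over the 9 libraries the level spanned 368-fold, with CpFatB5 at both ends, and the 45 DAF library of CpFatB5 alone held 65.3% of the normalized counts of the copies.

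Ranked over all libraries, the level was lowest in CpFatB5 at 25 DAF, then in Youngsan at 8 DAF, with CpFatB4 at 8 and 25 DAF, CpFatB5 at 8 DAF and Youngsan at 25 DAF following, and the 45 DAF libraries of Youngsan, CpFatB4 and CpFatB5 on top. Neighbours in this order had overlapping counting intervals in 3 places, between CpFatB5 at 25 DAF and Youngsan at 8 DAF, between CpFatB4 at 8 and 25 DAF, and between CpFatB5 at 8 DAF and Youngsan at 25 DAF.

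**Figure D1:**
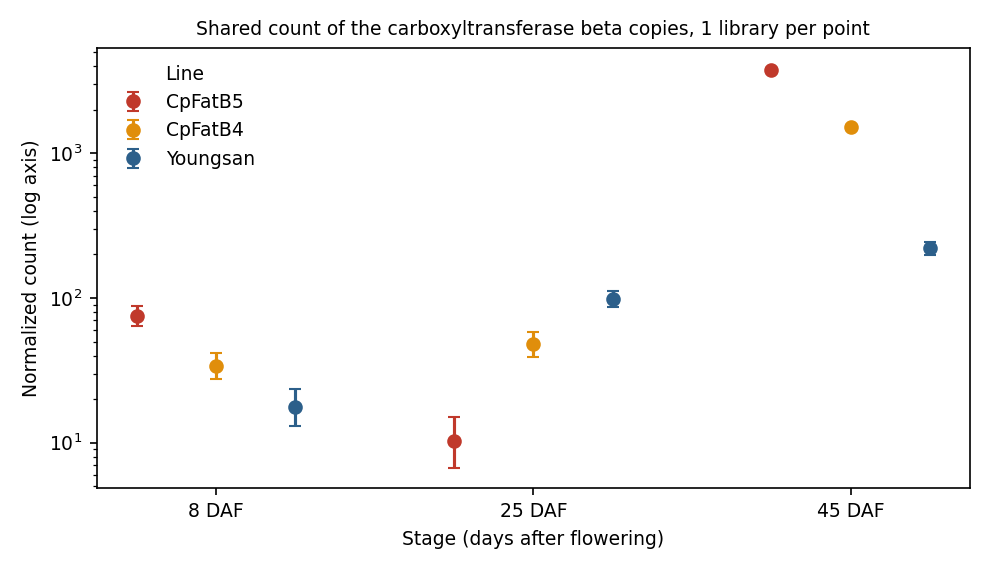
Normalized count of the carboxyltransferase beta copies (log axis) in each of the 9 libraries, grouped by stage in DAF. Points are single libraries and bars are 95% Poisson counting intervals. The lines spread 4.28-fold at 8 DAF, 9.54-fold at 25 DAF and 17.2-fold at 45 DAF, and CpFatB5 is the lowest line at 25 DAF and the highest at 8 and 45 DAF.

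The genes whose identifiers stand next to the copies were examined for the same pattern. Likeness was measured by Pearson's r of log2 normalized counts plus 1 over the 9 libraries, as a description. Its points share libraries and size factors. BnaA10g13950D, just before BnaA10g13960D, is listed by the study as similar to ATCG00490, the Arabidopsis plastid gene of the large subunit of Rubisco (RbcL). The 6 genes after the copy, BnaA10g13970D to BnaA10g14020D, had r between 0.953 and 0.985 with the copy. From BnaA10g14030D onwards, and before BnaA10g13950D, r was between -0.834 and 0.806. Within 10 identifier steps, 7 of the 19 genes in the table had r of at least 0.85 and a mean of at least 10 normalized counts. All 7 shared their counts with a gene elsewhere in the table. BnaA10g13970D and BnaA10g14020D also shared theirs with each other, and so did BnaA10g13980D and BnaA10g14010D.

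The block on C09 was longer. There BnaC09g27520D (PsbC-like, a core protein of photosystem II), BnaC09g27530D and BnaC09g27540D (PsaB- and PsaA-like, the reaction centre proteins of photosystem I), BnaC09g27600D and BnaC09g27610D (RbcL-like) preceded BnaC09g27620D. The fourth identical gene, BnaC09g27690D, closed it 7 steps on. Of the 19 genes within 10 steps of BnaC09g27620D, 17 met both limits, with r between 0.868 and 1, and 16 of these shared their counts with another gene. The r of 1 is that of BnaC09g27690D and follows from its identical counts. BnaC09g27630D and BnaC09g27680D shared 1 set of counts, and BnaC09g27640D and BnaC09g27670D another, so the 17 are not separate measurements. Around BnaC05g37990D, 9 of 19 genes met them, among them the RbcL-like BnaC05g37970D and BnaC05g37980D just before it. In the RefSeq gene table of the Da-Ae assembly, which holds 1 accD entry, on the plastid, the protein-coding genes run psbC, psaB, psaA, rbcL and accD in this order with others between them, and rbcL directly precedes accD. None of the 91830 identifiers matched an entry of that table, so the genes without a name in the study stay unnamed here.

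**Figure D2:**
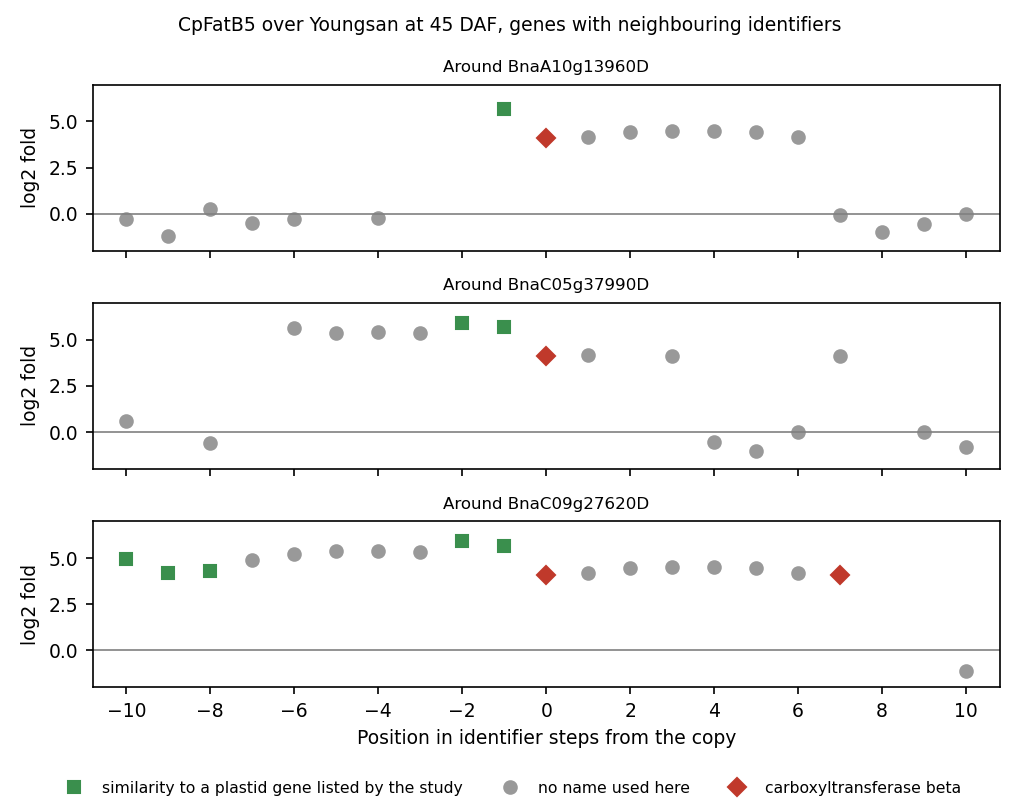
log2 fold change of CpFatB5 over Youngsan at 45 DAF (vertical axis) for genes up to 10 identifier steps before or after each copy (horizontal axis), for genes with a mean of at least 10 normalized counts. Red diamonds are carboxyltransferase beta genes, green squares genes that the study listed as similar to a plastid gene, and grey circles other genes. The genes alike in pattern lie between 4.10 and 5.92, and the other genes between -1.21 and 1.18, low-count genes outside the plot included.

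Among the 6084 other genes with a mean of at least 1000 normalized counts, the 5 with the highest r were BnaA06g19400D and BnaCnng20740D, which shared 1 set of counts (r = 0.988), and BnaC09g16410D, BnaC09g26850D and BnaC09g29190D, which shared another (r = 0.988). BnaA06g19400D had 11606 normalized counts in CpFatB5, 1826 in CpFatB4 and 292 in Youngsan at 45 DAF. At least 0.9 was reached by 49 of the 6084 genes, and the median r of all of them was -0.30. The 28 plastid-like genes of the study's lists, which the study chose on these libraries by their change, were all among those compared, and 14 of them reached 0.9. The r of the PsaB-like genes was 0.984, that of the RbcL-like genes 0.868 to 0.877 and that of the genes similar to ribosomal protein S12 0.758 to 0.764.

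The question of how the copies changed as pods matured was asked first within each line. At 25 against 8 DAF the copies were 7.35-fold lower in CpFatB5, with a log2 fold change of -2.88 (counting interval -3.53 to -2.28). In CpFatB4 the log2 fold change was 0.49 (0.08 to 0.91), and in Youngsan it was 2.47 (2.02 to 2.95). The CpFatB4 value was 0.06 when scaled by total count and 0.077 with size factors from abundant genes, both near 0. The direction differed between CpFatB5 and Youngsan, at 10.3 to 97.9 normalized counts.

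At 45 against 25 DAF the copies were higher in all 3 lines. The log2 fold change was 8.52 in CpFatB5 (7.97 to 9.14), which is 368-fold and starts from 26 counts. It was 4.97 in CpFatB4 (4.69 to 5.27), or 31.4-fold, and 1.17 in Youngsan (0.93 to 1.41), or 2.25-fold. The intervals of the 3 lines did not overlap. The study set a minimum on the average expression of a gene without saying over which libraries. Read as a mean of 1000 normalized counts over both libraries compared, it was met in CpFatB5 only, with a mean of 1892. In that comparison 18.9% of the 5954 genes over the minimum were at least 2-fold higher. In CpFatB4 the mean was 777, and among the genes with a mean of at least 200 there, 8.25% were at least 2-fold higher. With the minimum of 1000 set on the higher library, a choice made after seeing the data, the copies were also called in CpFatB4. The same rule called 13.4% of all genes over that minimum higher there. The numbers of genes called in this way lay close to those the study reports, except where it used a lower minimum. In Youngsan the mean was 159.

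Tested over the lines, with limma's voom fit on all 72206 genes that passed the filter and the line as a block, the copies rose at 45 against 25 DAF with a log2 fold change of 5.13 ± 1.11 (SE, 3 libraries at each stage, limma adjusted p = 0.00542). The same fit called 18.1% of all genes higher and 30.7% lower, so a call by itself was common. Without the CpFatB5 libraries the estimate was 3.22 ± 0.97 with an adjusted p of 0.0511, and the call was lost. It was 5.21 without CpFatB4 and 6.78 without Youngsan, both with the call kept. The 3 libraries of 45 DAF did not overlap with the 3 of 25 DAF. An exact two-sided permutation test of the log2 levels, which left out the pairing by line, gave p = 0.1. This is the smallest that 3 against 3 unpaired libraries allow.

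At 25 against 8 DAF the limma estimate was -0.21 ± 1.18 (SE, adjusted p = 0.903), in a fit that called 43.2% of all genes. The estimate was 1.35 without CpFatB5 and -1.22 without Youngsan, so its sign rested on which line was left out.

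**Figure D3:**
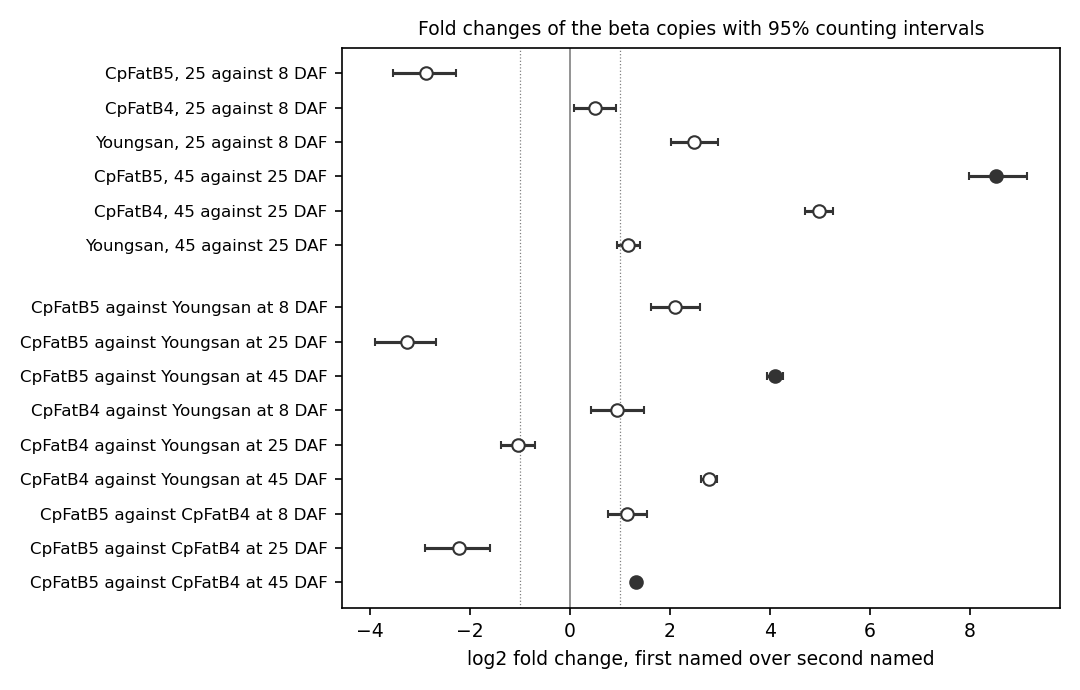
log2 fold change of the copies in the 15 comparisons, first named library over the second, with 95% counting intervals. Filled points have a mean of at least 1000 normalized counts over both libraries, open points a lower one, and dotted lines mark 2-fold. The 45 against 25 DAF values order the lines as CpFatB5 (8.52), CpFatB4 (4.97) and Youngsan (1.17).

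The lines were then compared at each stage. At 45 DAF the copies were 17.2-fold higher in CpFatB5 than in Youngsan (log2 fold change 4.10, counting interval 3.95 to 4.25) and 6.84-fold higher in CpFatB4 than in Youngsan (2.77, 2.62 to 2.94). CpFatB5 was 2.51-fold above CpFatB4 (1.33, 1.24 to 1.41). In CpFatB5 against Youngsan 4.01% of the 6107 genes over the minimum were at least 2-fold higher, and 166 of them were at least as high as the copies. In CpFatB5 against CpFatB4 10.6% of 5596 genes were at least 2-fold higher. In CpFatB4 against Youngsan the copies had a mean of 863, under a minimum of 1000 on the mean. With the minimum on the higher library they were called there too, beside 8.67% of all genes over it. The study lists the beta subunit gene as up-regulated at 45 DAF in both transgenic lines. At the lower minimum, 6.7% of the 24379 genes with a mean of at least 200 were at least 2-fold higher.

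At 8 DAF the order was the same with smaller differences. The log2 fold change was 2.099 for CpFatB5 against Youngsan (1.63 to 2.59) and 0.95 for CpFatB4 against Youngsan (0.43 to 1.49). At 25 DAF the copies were lower in both transgenic lines, by 9.54-fold in CpFatB5 (log2 fold change -3.25, -3.90 to -2.67) and by 2.04-fold in CpFatB4 (-1.03, -1.37 to -0.70). All 6 comparisons between lines at 8 and 25 DAF rest on means of at most 72.9 normalized counts, under the minimum of each of these readings.

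No common line effect over the stages was called for the copies. The limma estimate was 1.82 ± 1.04 for CpFatB5 against Youngsan (SE, adjusted p = 0.819) and 1.48 ± 1.04 for CpFatB4 against Youngsan (adjusted p = 0.724). In these fits 0.00831% of all genes were called for CpFatB5, that is 6 genes, and 0% for CpFatB4, where limma gave 0 genes at the adjusted threshold and 4669 genes at an unadjusted p under 0.05. With 1 library for each line and stage, the spread in this fit holds the part of the line differences that varies with the stage. Variation between pools and libraries is in it too, and the design cannot tell them apart. Without 25 DAF the estimates were 3.44 (adjusted p = 0.116) and 2.26 (adjusted p = 0.723), and without 45 DAF they were -0.61 and -0.03.

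**Figure D4:**
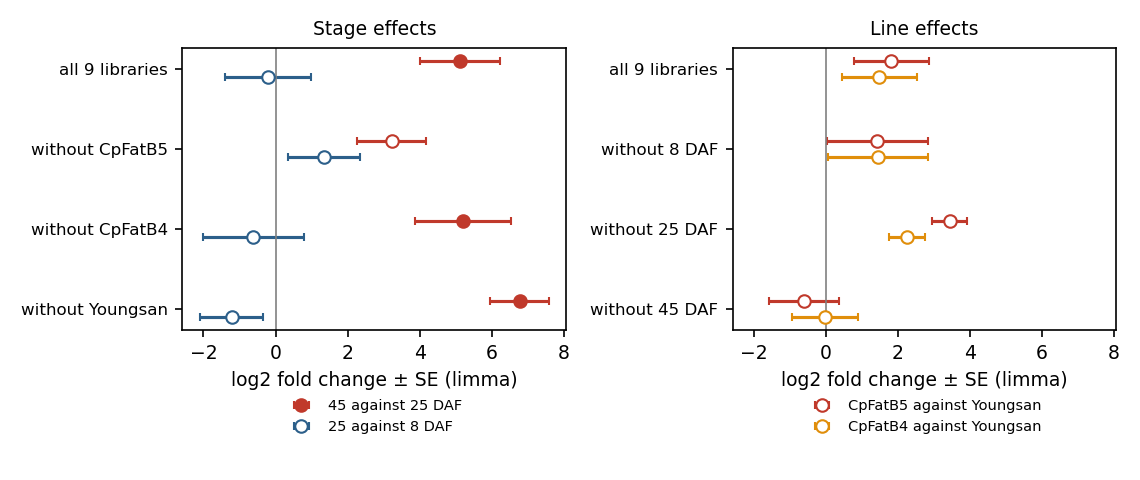
limma log2 fold changes of the copies with SE bars, for the stage effects (left panel) and the line effects (right panel), with all 9 libraries and with each line or stage left out. Filled points passed an adjusted p of 0.05. Without CpFatB5 the 45 against 25 DAF effect is 3.22 and no longer passes, and without 45 DAF both line effects are below 0.

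The other subunit genes of the enzyme were followed over the same libraries. The alpha subunit genes BnaA03g17570D, BnaC03g21010D, BnaA05g06620D and BnaC04g07230D form the carboxyltransferase together with beta. Their summed level was 3274 normalized counts in CpFatB5, 3563 in CpFatB4 and 3920 in Youngsan at 8 DAF. It was 17490 in CpFatB5, 16774 in CpFatB4 and 20182 in Youngsan at 25 DAF, and 1052 in CpFatB5, 5925 in CpFatB4 and 2910 in Youngsan at 45 DAF. The alpha genes were thus highest at 25 DAF in every line, the stage at which the beta copies of CpFatB5 were at their lowest. In Youngsan the summed alpha genes and the copies had like values at 25 against 8 DAF, with a log2 fold change of 2.36 for the alpha genes and 2.47 for the copies.

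All 16 nuclear subunit genes (4 alpha, 4 BC and 8 BCCP genes) fell at 45 against 25 DAF by the limma test, beside 30.7% of all genes. Their log2 fold changes lay between -3.68 and -1.64 with a median of -2.66, beside a median of -0.18 over all genes tested. Without Youngsan 6 of the 16 passed and without CpFatB5 15. At 25 against 8 DAF 14 of the 16 rose, in a fit that called 21% of all genes higher, with a median of 2.45 beside -0.01 over all genes, and 6 of the 16 without Youngsan. The BCCP genes BnaA10g18680D and BnaC09g42420D had the lowest 45 against 25 DAF values within CpFatB5, -5.82 and -5.79. The pair of homomeric ACCase genes, BnaA08g06180D and BnaC08g06560D, which encode the single-chain enzyme, had log2 fold changes of 0.30 each at 45 against 25 DAF and did not pass the test.

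Between lines at 45 DAF, all 16 nuclear subunit genes were lower in CpFatB5 than in Youngsan, with log2 fold changes between -1.70 and -0.05, a median of -1.40, and no gene over the minimum, whereas 12 of the 16 were lower with size factors from abundant genes and 15 when scaled by total count. The median of all genes over the minimum was -0.45 there. In CpFatB4 all 16 were higher than in Youngsan, between 0.73 and 3.39 with a median of 1.48, and 4 of the 6 genes over the minimum were at least 2-fold higher, beside 7.57% of all genes over it, and this was 2 when scaled by total count. The median of all genes was -0.26. The beta copies were therefore higher in both transgenic lines at 45 DAF, while the median of the nuclear subunit genes was higher in CpFatB4 and lower in CpFatB5 under each of the 4 scalings.

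The ratio of raw counts within a library needs no scaling between libraries. For 100 counts of the 4 alpha genes, the copies had 2.31 counts in CpFatB5, 0.955 in CpFatB4 and 0.449 in Youngsan at 8 DAF. At 25 DAF they had 0.0587 in CpFatB5 (interval 0.0383 to 0.0860), 0.286 in CpFatB4 and 0.485 in Youngsan. At 45 DAF they had 359 in CpFatB5 (335 to 384), 25.4 in CpFatB4 (24.1 to 26.8) and 7.56 in Youngsan (6.81 to 8.38). Against all 16 nuclear subunit genes the copies had 141 counts per 100 in CpFatB5, 8.32 in CpFatB4 and 3.25 in Youngsan at 45 DAF. These ratios are not corrected for gene length and are read only between libraries.

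**Figure D5:**
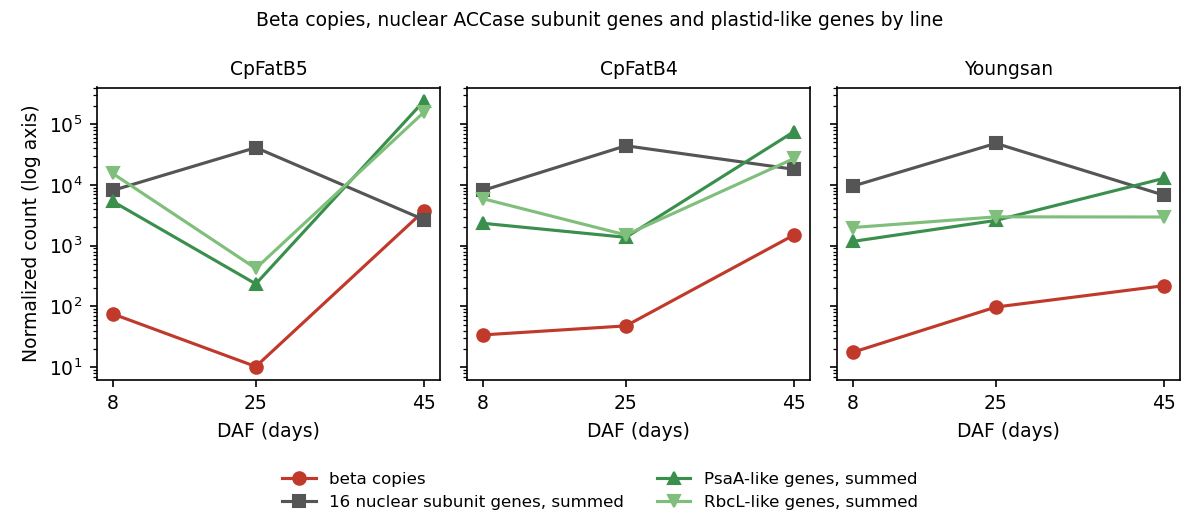
Normalized counts (log axis) of the beta copies, of the 16 nuclear ACCase subunit genes and of the PsaA- and RbcL-like genes, each group summed over genes with distinct counts, at 8, 25 and 45 DAF in the 3 lines. The nuclear genes peak at 25 DAF in every line (41197 in CpFatB5, 44179 in CpFatB4 and 48390 in Youngsan), and in CpFatB5 the copies (3773) lie above their sum (2673) at 45 DAF.

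Among the other genes of plastidial fatty acid synthesis in the study's list, 116 were in the table. Of these, 97 fell and 2 rose at 45 against 25 DAF by the limma test, with a median of -2.47. The same fit called 30.7% of all genes lower and 18.1% higher. Without Youngsan 64 fell. In CpFatB5 37 of the 40 over the minimum were at least 2-fold lower at 45 against 25 DAF and none was higher, beside 32.8% of all genes lower. In CpFatB4 45 of 48 were at least 2-fold lower, and 27 when scaled by size factors from abundant genes, beside 15.5% of all genes. In Youngsan 40 of 43 were at least 2-fold lower, beside 21.1% of all genes. The copies were higher at this step in each line, and so were 2 of the 116 genes in CpFatB5, 13 in CpFatB4 and 6 in Youngsan. Of the 41 genes for elongation, desaturation and export from the plastid, 33 fell and 2 rose by the limma test, beside the same 30.7% and 18.1%. Without Youngsan 10 of the 41 fell and none rose.

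The genes listed as similar to plastid genes were set beside the copies. The study chose them by their change in these libraries, so their direction is no independent evidence. They were 28 genes with 16 distinct sets of counts. By the limma test 23 of the 28 rose at 45 against 25 DAF, with a median of 5.19, beside 18.1% of all genes called higher. The 5 S12-like genes, at 1.76 to 1.77, did not pass. Without CpFatB5 14 of the 28 passed, and without Youngsan all 28. In CpFatB5 against Youngsan at 45 DAF all 28 were at least 2-fold higher, beside 4.01% of all genes over the minimum. Their median log2 fold change was 4.96 beside 4.10 for the copies, and the 17 mitochondrion-like genes had a median of 6.20. At 25 DAF all 28 were lower in CpFatB5 than in Youngsan, with a median of -2.92 beside -3.25 for the copies.

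Within the lines the likeness had exceptions. At 25 against 8 DAF all 28 were lower in CpFatB5 (median -4.32 beside -2.88 for the copies) and all 28 were higher in Youngsan (median 1.21 beside 2.47). In CpFatB4 all 28 were lower at that step, with a median of -1.52, whereas the copies had 0.49. In Youngsan at 45 against 25 DAF 17 of the 28 were higher, with a median of 0.57 beside 1.17 for the copies, and this count ran from 14 to 23 under the other scalings. The S12-like genes had values between -0.95 and -0.90 there, and the RbcL-like genes between -0.15 and 0.01.

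The plastid-like genes were also set against all counts of a library. Each of their 16 distinct sets of counts was taken once, while the total held every gene. The shares are therefore smaller than those of all 28 genes. These sets took 3.71% in CpFatB5, 0.608% in CpFatB4 and 0.164% in Youngsan at 45 DAF. At 25 DAF they took 0.0464% in CpFatB5, 0.0834% in CpFatB4 and 0.181% in Youngsan, and at 8 DAF 0.579% in CpFatB5, 0.330% in CpFatB4 and 0.0854% in Youngsan. The 16 distinct sets of the mitochondrion-like genes, each taken once, took 0.432% in CpFatB5, 0.0394% in CpFatB4 and 0.00737% in Youngsan at 45 DAF. The order of the lines in the plastid-like share was that of the copies at every stage. The part of this share in the differences of the copies was not tested.

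Set against the plastid-like groups below, each summed over genes with distinct counts, the copies varied far less than against the nuclear subunit genes. The study chose the plastid-like genes by their change in these libraries, and the nuclear subunit genes were not chosen so. The contrast between both ranges is therefore a description and no independent evidence. For 100 counts of the PsaA-like genes the copies had between 1.41 and 4.36 counts over the 9 libraries, a range of 3.10-fold. At 45 DAF they had 1.55 in CpFatB5 (1.51 to 1.60), 1.99 in CpFatB4 (1.90 to 2.08) and 1.71 in Youngsan (1.54 to 1.89). At 25 DAF they had 4.36 in CpFatB5 (2.83 to 6.46), 3.49 in CpFatB4 (2.85 to 4.23) and 3.75 in Youngsan (3.28 to 4.26), with overlapping intervals. At 8 DAF the ratios of the 3 lines lay between 1.41 and 1.497 with overlapping intervals. The ratio was higher at 25 DAF than at 8 and 45 DAF in each line.

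Against the RbcL-like genes, which stand next to the copies, the ratio spanned 15.2-fold. It was 2.38 per 100 counts in CpFatB5, 5.51 in CpFatB4 and 7.42 in Youngsan at 45 DAF, without overlap of the intervals. At 8 DAF it was 0.489 in CpFatB5, 0.572 in CpFatB4 and 0.884 in Youngsan. The ratio to the PsbC-like genes spanned 3.91-fold and that to the PsbA-like genes 5.59-fold over the 9 libraries. To all plastid-like genes together, S12-like genes included, it spanned 12.1-fold, against 5667-fold for the 16 nuclear subunit genes. No ratio to the S12-like genes alone was taken. In CpFatB4 their sum was 76838.5 normalized counts at 8 DAF and 86749.4 at 45 DAF, where the copies had 34.0 and 1506.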

How the data were processed

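Whole pods of 3 lines at 3 stages gave 9 libraries. Stages are given as days after flowering, which the labels call days after fertilization. The authors trimmed reads with SolexaQA and mapped them with Bowtie2 2.1.0 to the Genoscope *B. napus* coding sequences, allowing 2 mismatches. The counting tool is not given in the sources used here. The deposited table holds 18 raw columns, 2 per library, of whole counts of at least 1, recorded in the unit other because large values carry commas. The authors' 13 rounded DESeq-normalized columns are recorded as a score, and the size factors used here matched them within 0.500. The columns of a library were treated as repeat measurements. Since the sources leave the columns unexplained, this is an assumption.

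Each raw column was divided by its median-of-ratios size factor, and a library's level is the mean of its 2 columns. For fold changes of lists, levels under 3 were raised to 3. A gene was called in a comparison of 2 libraries at a 2-fold difference and a mean of at least 1000 normalized counts over both libraries (200 for CpFatB4 against Youngsan at 25 DAF), without the authors' test. Stage and line effects were tested with limma 3.58.1 (voom, line and stage as additive terms, summed counts, at least 10 normalized counts in 3 libraries, Benjamini-Hochberg adjustment at 0.05) in R 4.3.3. A count model of another package was not applied. Counts were also made with a known 8-fold change of 200 genes at 45 against 25 DAF and a dispersion of 0.05. In these counts limma recovered 200 of the changed genes and called 16 of the other genes. Recovery of a change that differs between lines, like that of the copies, was not tested. Other steps ran in Python 3.11.15 (scipy 1.17.1, numpy 2.4.6, pandas 2.3.3; figures in matplotlib 3.10.9). Scalings, filters, single columns and left-out libraries were tried as alternatives.

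Named genes were the copies, the ACCase subunit genes, plastid-like groups, identifier neighbours and the 5 genes of highest r. Members and lists were chosen with earlier results of these data known. No sequences were used here.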

Additional observations from a re-analysis of the deposited data

Results flagged for a closer look

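The change of the copies went in opposite directions in different lines or stages in 8 pairs of comparisons, each resting on 1 library a group, so the differences themselves were not tested. At 25 against 8 DAF the log2 fold change was -2.88 in CpFatB5, against 0.49 in CpFatB4 (0.06 when scaled by total count) and 2.47 in Youngsan. In CpFatB5 against Youngsan it was 2.099 at 8 DAF, -3.25 at 25 DAF and 4.10 at 45 DAF. In CpFatB4 against Youngsan it was 0.95 at 8 DAF, -1.03 at 25 DAF and 2.77 at 45 DAF. In CpFatB5 against CpFatB4 it was 1.15 at 8 DAF, -2.22 at 25 DAF and 1.33 at 45 DAF. The 25 DAF library of CpFatB5, with 26 counts over both columns, takes part in 6 of these 8 pairs, and the pairs share libraries with each other.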

How the results depend on the processing

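The rise at 45 against 25 DAF kept its call under the other scalings, with no filter and with the limma trend fit (4.78 to 5.47), while leaving out a line gave 3.22 to 6.78, and the call was lost without CpFatB5 (3.22, adjusted p = 0.0511). The 25 against 8 DAF effect was 0.037 with the trend fit and -1.22 to 1.35 with a line left out. With a stage left out, the line effect was -0.61 to 3.44 for CpFatB5 and -0.029 to 2.26 for CpFatB4. Scaled by total count, the log2 fold change of CpFatB4 at 45 against 25 DAF was 4.42 and that of CpFatB4 against Youngsan at 45 DAF 2.29. With size factors taken from abundant genes (mean of 1000 counts or more), that of CpFatB5 against Youngsan at 45 DAF was 4.56. These scalings moved the median of all genes over the minimum alike, to -0.85, -0.75 and 0.02, against -0.29, -0.26 and -0.45. Of the 15 comparisons the copies were called in 3, and in 5 with a minimum of 200. They were called in 0 with a mean of at least 1000 over all 9 libraries. With the minimum set on the higher library, an alternative chosen after seeing the data, they were called in 5. The numbers of genes called with the minimum on the higher library lay close to those the study reports, except where it used a lower minimum. No direction of a fold change turned under any scaling or with a single column. limma called 13063 genes higher at 45 against 25 DAF, 20737 with no filter, 7562 when scaled by total count, 6673 without CpFatB5 and 4715 without Youngsan. No pairing by replicate was possible with 1 library for each line and stage. The stage test is itself paired by line, which is a term of its fit. The low count of the copies limits them most in CpFatB5 at 25 DAF, where 26 counts carry every ratio. That library was not shallow, with 83475638 counts over both columns.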
